A study of Mus musculus with 17 samples.

Results

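Neurod1, Neurod2, Neurod4, Insm1, Hes6, Onecut1, Onecut2, Onecut3 and Myt1 are 9 transcription factor genes of neuroendocrine and neuronal differentiation, and they were taken by symbol from the 23284 genes of the count tables. Neurod1, Neurod2, Neurod4 and Hes6 encode basic helix-loop-helix (bHLH) proteins, Insm1 and Myt1 encode zinc-finger proteins, and the 3 Onecut genes encode proteins with a cut domain and a homeodomain, so neither of the other class names covers them. Their RNA was measured in 17 mouse tumours, each labelled as a neuroendocrine tumour of the pituitary. All 17 carried engineered alleles of Rb1 and Trp53, the genes of the retinoblastoma protein and of p53; 8 of them also carried an allele of Crebbp, the gene of a histone acetyltransferase that coactivates transcription, and the other 9 did not. The sources used here do not give the driver of recombination, the age and strain of the mice or whether each tumour came from its own mouse, and p-values then measure only the spread between these samples. Per its design text, the study looked for genes that Crebbp regulates in such tumours.

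The libraries were split by the counts themselves, as Pomc-high where Pomc, the precursor gene of ACTH and the melanocyte-stimulating hormones, had more reads than Calca, the calcitonin gene, and as Calca-high otherwise. The Pomc-high set held 10 libraries, 6 labelled Rb1/Trp53 (tumours 2 and 5 to 9) and 4 labelled Rb1/Trp53/Crebbp (tumours 5 to 8). The Calca-high set held 7, of which 3 were Rb1/Trp53 (tumours 1, 3 and 4) and 4 were Rb1/Trp53/Crebbp (tumours 1 to 4). These sets are not groups of the study. Crebbp itself had 39.6 to 116 counts per 1e6 reads on genes (CPM, scaled by the trimmed mean of M-values) in the 17 libraries, and because its counts cover the whole gene they do not check whether the allele was deleted. Libraries labelled with the Crebbp allele had more Crebbp RNA in the Calca-high set (log2 fold change 0.60, adjusted p = 0.00723 by edgeR's quasi-likelihood test), while the value in the Pomc-high set was -0.47 (adjusted p = 0.239), and these effects differed by 1.08 (adjusted p = 0.0240).

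The bHLH activators of this family bind E-boxes as pairs with E proteins, and the proneural factor Neurog3 often acts before a Neurod gene. Hes6 differs from other Hes proteins in that it opposes Hes1 and favours differentiation. Insm1 represses genes through corepressors such as Rcor and Kdm1a and is widely used as a marker of neuroendocrine tumours, Myt1 takes part in the formation of endocrine islet cells, and Onecut1 acts upstream of Neurog3 in the pancreas. In the pituitary, Neurod1 is known as an activator of Pomc in corticotroph cells.

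Of the 9 genes, 6 had a promoter entry in the RefSeq table for GRCm38.p6, namely Neurod1, Neurod2, Neurod4, Hes6, Onecut1 and Myt1. The 250 bases before each of the 2 starts of Hes6 are shown because Hes6 was the bHLH gene whose Pomc-high and Calca-high levels did not overlap. Both lie on the minus strand, the stretch before the upstream start at chr1:91414039-91414288 and that before the downstream start at chr1:91413223-91413472, and both are printed 5′ to 3′ with E-boxes (CANNTG, the same letters on either strand) in capitals.
Hes6 upstream start: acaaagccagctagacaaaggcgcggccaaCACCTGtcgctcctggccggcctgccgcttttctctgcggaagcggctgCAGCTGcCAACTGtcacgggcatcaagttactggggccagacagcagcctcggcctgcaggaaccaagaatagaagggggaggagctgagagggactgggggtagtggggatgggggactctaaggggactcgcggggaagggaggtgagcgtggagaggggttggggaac
Hes6 downstream start: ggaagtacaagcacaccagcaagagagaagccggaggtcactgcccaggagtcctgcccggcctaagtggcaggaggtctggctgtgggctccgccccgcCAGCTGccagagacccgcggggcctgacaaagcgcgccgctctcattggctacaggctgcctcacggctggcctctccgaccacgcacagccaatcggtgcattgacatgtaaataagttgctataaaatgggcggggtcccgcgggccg
The upstream stretch holds 3 E-boxes and the downstream stretch 1. Of 32841 promoters in the table, 66.2% hold at least 1 E-box in the same window, so the match is a description of these letters and not a binding site.

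The total on genes was 8328297 to 28140755 reads per library, and no pair of tables within a group held the same library. In the Calca-high libraries the pituitary factors Tbx19 and Pax7 were at 0.317 CPM and 0.183 CPM or below, against at least 306 and at least 125 CPM in the Pomc-high ones, while Nkx2-1 and Ret, genes of thyroid C cells, were at 188 CPM and 126 CPM or above, so the defining pituitary markers were nearly absent there despite the label. Within the Calca-high set, marker genes moved with the genotype, where 17.1% of all genes tested fell and 19.1% rose. The summed level of 6 C-cell genes was 118300 to 177300 CPM in Rb1/Trp53 and 35090 to 68080 CPM in Rb1/Trp53/Crebbp (5 of 5 tested fell). Nearly all of this sum was Calca, the gene that defined the set (117200 to 176300 against 34460 to 67480 CPM). The summed level of 8 thyroid follicular genes was 2163 to 17010 against 946 to 1321 CPM (7 of 8 fell), that of 5 fat-cell genes 28.8 to 144 against 6.34 to 10.1 CPM (4 of 4 tested fell) and that of 8 endothelial genes 120 to 127 against 62.4 to 87.5 CPM (6 of 8 fell). Of 8 macrophage genes 3 fell (135 to 179 against 51.9 to 117 CPM summed), and of 6 lung epithelial genes 3 fell and 1 rose (208 to 357 against 73.6 to 106 CPM summed). Fibroblast genes summed to 539 to 835 against 169.9 to 608 CPM, but 0 of 6 passed. Within the Pomc-high set 2 of 6 tested melanotroph and corticotroph genes fell, Pcsk2 and Drd2; the list summed to 216700 to 326400 against 96810 to 235400 CPM, most of it Pomc, which defined the set. In the same comparison 2 of 8 endothelial genes (58.1 to 102 against 29.5 to 58.2 CPM summed) and 2 of 8 macrophage genes (72.7 to 206 against 18.3 to 149 CPM summed) fell. Of all genes tested in the Pomc-high set, 5.26% fell. Rb1/Trp53/Crebbp tumour 8 stood apart with 602 CPM over 8 posterior-lobe and astroglial genes, against 10.3 to 57.5 CPM in the 6 Pomc-high Rb1/Trp53 libraries. Neuronal markers summed to 621 to 919 CPM in the Pomc-high and 71.0 to 212 CPM in the Calca-high libraries. The part of these cells in the results below was not tested, and in bulk RNA fewer cells of a type and less RNA per cell cannot be told apart.

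Insm1, Hes6 and Myt1 were the abundant genes of the group. Levels were set on the scale of CPM per kilobase of exon, with exon lengths from GENCODE M21 (GRCm38), which may differ from the models the authors counted. Over all 17 libraries the mean level per kilobase was 57.8 ± 27.9 (SD, n = 17) for Insm1, 42.7 ± 16.1 for Hes6 and 11.3 ± 2.14 for Myt1. Onecut2 (1.15 ± 1.43) and Neurod4 (1.12 ± 0.354) came next and did not differ beyond their spread. Neurod1 (0.105 ± 0.146), Onecut3 (0.0670 ± 0.106), Onecut1 (0.0212 ± 0.0222) and Neurod2 (0.00570 ± 0.0132) followed, each within the spread of its neighbour in this order.

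Among Insm1, Hes6, Myt1, Onecut2 and Neurod4 the order changed at 2 places. The first change was between the sets and the second with the genotype within the Calca-high set. Of the scarcer genes, Neurod1 had a higher mean per kilobase than Onecut3 in the Pomc-high set (0.176 against 0.0380). In the Calca-high set it had the lower mean (0.00239 against 0.1085). Per kilobase, Hes6 stood above Insm1 in 10 of 10 Pomc-high libraries and in 0 of 7 Calca-high libraries. The margin was small in some Pomc-high libraries, such as 50.85 against 50.26 in Rb1/Trp53 tumour 2. The order there depends on the exon lengths used, 1808 bases for Hes6 and 3100 for Insm1. Without length scaling the Pomc-high means were 96.8 CPM for Hes6 and 126 CPM for Insm1. Per kilobase, Onecut2 stood below Neurod4 in the 10 Pomc-high libraries and in the 3 Calca-high Rb1/Trp53 libraries, and above it in 4 of 4 Calca-high Rb1/Trp53/Crebbp libraries. That order also depends on the exon lengths, 16234 bases for Onecut2 and 3345 for Neurod4. Without length scaling Onecut2 had the higher mean in the Pomc-high set (6.45 against 3.67 CPM). The same held in Calca-high Rb1/Trp53 (5.90 against 5.27 CPM) and Calca-high Rb1/Trp53/Crebbp (58.65 against 2.77 CPM). On the scale per kilobase, Hes6 stood above Myt1, and Myt1 above Neurod4, in each of the 17 libraries.

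**Figure D1:**
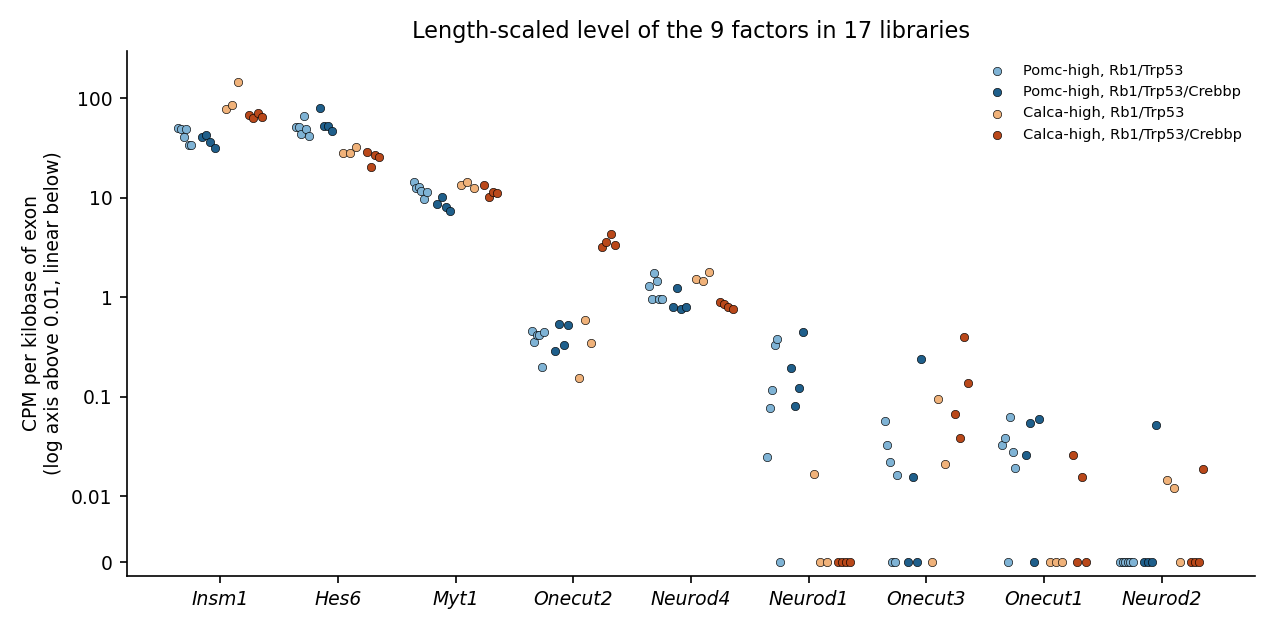
Level of each of the 9 genes per library, in CPM per kilobase of exon on an axis that is logarithmic above 0.01 and linear below; each point is 1 library, coloured by set and genotype. Insm1, Hes6 and Myt1 lie above 7 in every library, Onecut2 rises above Neurod4 in the 4 Calca-high Rb1/Trp53/Crebbp libraries, and Neurod1, Onecut3, Onecut1 and Neurod2 include libraries listed at 0.

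Insm1, the zinc-finger repressor, was higher in the Calca-high than in the Pomc-high tumours. Its levels in the Pomc-high libraries were 156, 150.4, 126, 152, 104 and 105 CPM in Rb1/Trp53 (tumours 2 and 5 to 9, in that order) and 128, 131, 113 and 98.1 CPM in Rb1/Trp53/Crebbp (tumours 5 to 8). In the Calca-high libraries they were 239.9, 267 and 449.9 CPM in Rb1/Trp53 (tumours 1, 3 and 4) and 211, 196, 218 and 199 CPM in Rb1/Trp53/Crebbp (tumours 1 to 4). The lowest Calca-high library lay above the highest Pomc-high library, and Rb1/Trp53 tumour 4 was the highest of all. Averaged over genotypes, Insm1 rose by a log2 fold change of 1.04 ± 0.12 SE in the Calca-high set (adjusted p = 1.25e-06; adjusted p-values here and below are from edgeR's quasi-likelihood fit, by Benjamini-Hochberg over all genes tested, unless a permutation test is named). The difference was 1.27 (adjusted p = 2.86e-04) among Rb1/Trp53 libraries alone and 0.79 (adjusted p = 2.09e-04) among Rb1/Trp53/Crebbp libraries alone.

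Within the Calca-high set Insm1 was lower in the Rb1/Trp53/Crebbp tumours, without overlap, and fell by 0.61 ± 0.20 on the log2 scale (adjusted p = 0.0419). The call was marginal and was lost in 6 of the 7 fits that left out 1 library each. Without Rb1/Trp53 tumour 4 the log2 fold change was -0.29 (adjusted p = 0.0505), and in the other 5 it was -0.59 to -0.72 (adjusted p = 0.0504 to 0.0949). Chga, the chromogranin A gene, which was picked with its value in view, fell in the same comparison (-0.95), as did the C-cell genes given above. Of 31 neuroendocrine and neuronal effector genes tested there, 5 rose and 7 fell, where 19.1% of all genes rose and 17.1% fell. Within the Pomc-high set the genotypes overlapped and the log2 fold change of Insm1 was -0.15 (interval from the SE -0.42 to 0.11, adjusted p = 0.521). Such intervals of log2 fold changes, here and below, take the normal quantile for 95% and are too narrow with so few libraries. The genotype effects in the sets differed by -0.46 ± 0.25, which did not pass (adjusted p = 0.192).

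Myt1, the zinc-finger gene of neural and islet cells, varied least among the 9, with a coefficient of variation of 0.189 over the 17 libraries. In the Pomc-high set it stood at 104, 89.6, 92.3, 84.7, 69.7 and 81.1 CPM in the 6 Rb1/Trp53 libraries and at 61.7, 72.8, 58.0 and 52.2 CPM in the 4 Rb1/Trp53/Crebbp libraries. The genotypes overlapped only between Rb1/Trp53 tumour 8 and Rb1/Trp53/Crebbp tumour 6. Myt1 fell by 0.49 ± 0.12 on the log2 scale in the Rb1/Trp53/Crebbp tumours (adjusted p = 0.0219). The call was lost without Rb1/Trp53/Crebbp tumour 7 (-0.46, adjusted p = 0.0730) and without tumour 8 of that genotype (-0.40, adjusted p = 0.0573).

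In the Calca-high set Myt1 stood at 96.7, 104 and 89.3 CPM in Rb1/Trp53 and at 96.0, 73.7, 81.9 and 79.3 CPM in Rb1/Trp53/Crebbp. These groups overlapped, with a log2 fold change of -0.21 (interval -0.43 to 0.00, adjusted p = 0.166), and the genotype effects in the sets were not shown to differ (0.28 ± 0.17, adjusted p = 0.246). Between the sets Myt1 was higher in the Calca-high libraries by 0.29 ± 0.09 (adjusted p = 0.00673), again with overlap. That difference was 0.42 (adjusted p = 0.0167) among Rb1/Trp53/Crebbp libraries and 0.16 (adjusted p = 0.279) among Rb1/Trp53 libraries, so the threshold was passed in the former alone, and the test of that difference is the one just given.

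**Figure D2:**
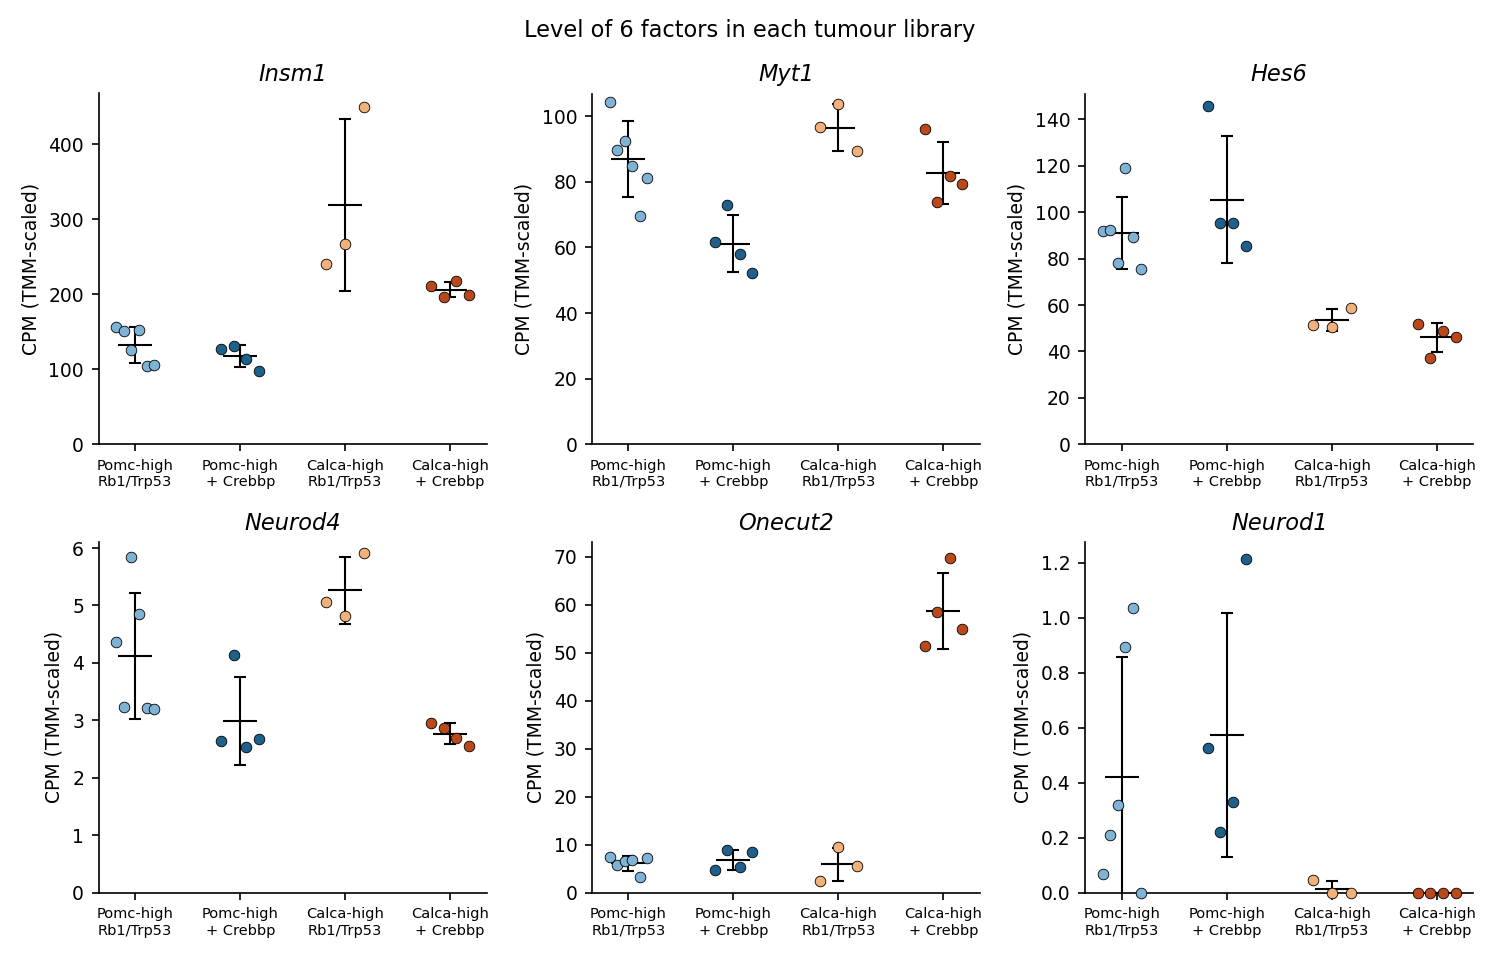
TMM-scaled CPM of 6 genes by set and genotype, on linear axes from 0; each point is 1 library, the horizontal line is the mean and the bars are 1 SD (n = 6, 4, 3 and 4 from left to right), drawn down to 0 at the lowest. Onecut2 is at 51.4 to 69.7 CPM in the Calca-high Rb1/Trp53/Crebbp libraries and below 10 CPM in the 13 others, and Hes6 and Insm1 separate the sets in opposite directions.

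Hes6, the bHLH antagonist of Hes1, went the other way from Insm1. It stood at 91.9, 92.2, 78.3, 119, 89.3 and 75.5 CPM in the Pomc-high Rb1/Trp53 libraries and at 146, 95.1, 95.2 and 85.3 CPM in the Pomc-high Rb1/Trp53/Crebbp libraries. In the Calca-high set it stood at 51.2, 50.5 and 58.9 CPM in Rb1/Trp53 and at 52.0, 37.2, 49.0 and 46.0 CPM in Rb1/Trp53/Crebbp. No Calca-high library reached the lowest Pomc-high library. Hes6 fell by 0.98 ± 0.12 on the log2 scale from the Pomc-high to the Calca-high set (adjusted p = 1.37e-06), by 0.76 among Rb1/Trp53 libraries (adjusted p = 7.08e-04) and by 1.21 among Rb1/Trp53/Crebbp libraries (adjusted p = 4.08e-04).

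The genotype did not separate Hes6 in either set. Its log2 fold change was 0.23 (interval -0.08 to 0.54, adjusted p = 0.399) in the Pomc-high set and -0.20 (interval -0.45 to 0.04, adjusted p = 0.223) in the Calca-high set. Hes1, the repressor that Hes6 opposes, did move: it stood at 3.67 to 7.01 CPM in Pomc-high Rb1/Trp53 and 2.43 to 3.03 CPM in Pomc-high Rb1/Trp53/Crebbp libraries (log2 fold change -0.82, adjusted p = 0.0394), and at 13.6 to 29.3 CPM and 5.50 to 7.71 CPM in those 2 genotypes of the Calca-high set (-1.64, adjusted p = 0.00337). Hes1 was higher in the Calca-high set (1.64, adjusted p = 1.24e-07), where Hes6 was lower.

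**Figure D3:**
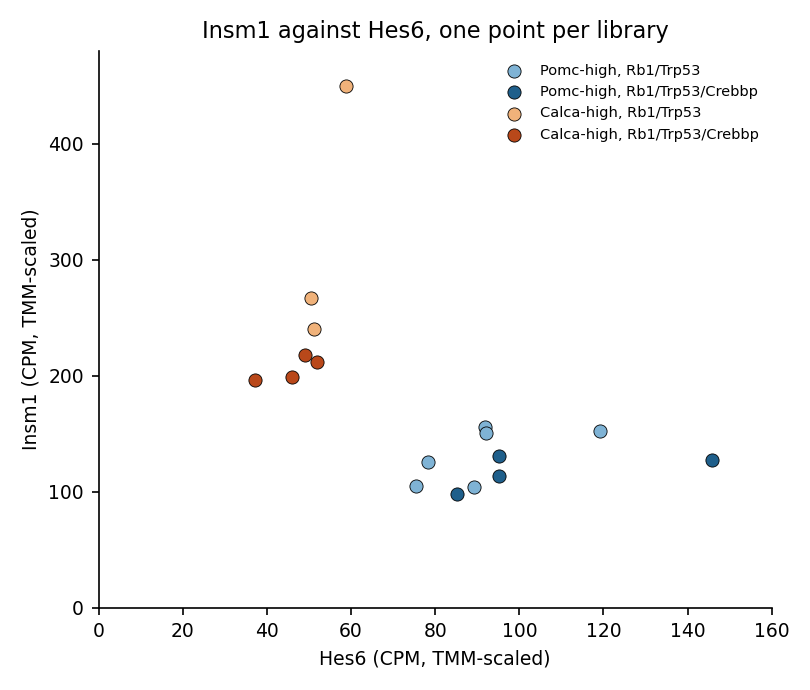
Insm1 against Hes6 in TMM-scaled CPM on linear axes from 0, with 1 point per library coloured by set and genotype. The 7 Calca-high libraries lie at 196 to 449.9 CPM of Insm1 and 37.2 to 58.9 CPM of Hes6, and the 10 Pomc-high libraries at 98.1 to 156 CPM and 75.5 to 146 CPM, so the sets are apart on both axes.

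Neurod4, a neural bHLH activator that also acts in the developing anterior pituitary, was the Neurod gene with reads in every library, at 23 to 127 reads each. In the Calca-high set it stood at 5.07, 4.81 and 5.92 CPM in Rb1/Trp53 and at 2.96, 2.87, 2.69 and 2.55 CPM in Rb1/Trp53/Crebbp. The genotypes did not overlap, and Neurod4 fell by 0.91 ± 0.21 on the log2 scale (1.89-fold, adjusted p = 0.0116); leaving out any of the 7 libraries kept it past the threshold. Its Pomc-high levels were 4.37, 3.23, 5.84, 4.84, 3.21 and 3.20 CPM in Rb1/Trp53 and 2.64, 4.14, 2.53 and 2.67 CPM in Rb1/Trp53/Crebbp. The 3 lowest of these 10 were Rb1/Trp53/Crebbp libraries, but tumour 6 of that genotype lay inside the Rb1/Trp53 range. The log2 fold change there was -0.43 (interval -0.93 to 0.08, adjusted p = 0.325). The effects in the sets were not shown to differ (-0.48 ± 0.34, adjusted p = 0.321), and neither were the levels of the sets (0.12, interval -0.22 to 0.45, adjusted p = 0.561).

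Neurod1, the activator of Pomc in corticotrophs, was rare in the Pomc-high tumours and almost without reads in the Calca-high ones. The Pomc-high libraries held 1, 4, 3, 7, 9 and 0 reads in Rb1/Trp53 and 5, 3, 3 and 15 reads in Rb1/Trp53/Crebbp; the library with 15 was tumour 8, which also had the high astroglial level. Of the 7 Calca-high libraries, Rb1/Trp53 tumour 1 held 1 read and the others held 0. The 4 Calca-high Rb1/Trp53/Crebbp libraries had 0 of 51696522 reads, which allows up to 0.0580 CPM (3 reads, counting error only). With library totals scaled by the TMM factors, Neurod1 was 54.0 times as frequent in the Pomc-high set (50 reads against 1, exact 95% interval 9.25 to 2174 for counting error only).

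The levels of Neurod1 were 0.481 ± 0.422 CPM (SD, n = 10) in the Pomc-high and 0.00652 ± 0.0173 CPM (SD, n = 7) in the Calca-high libraries. The exact two-sided permutation test over all 19448 regroupings gave p = 8.23e-04 (adjusted p = 0.00987 over 12 such tests of the 4 scarce genes), and 1 Pomc-high library at 0 overlapped the Calca-high ones. Neurod1 entered the fit across all genes only through its reads in the Pomc-high libraries, so its value from that fit is not given. The 2 genotypes were not shown to differ in the Pomc-high set (exact two-sided permutation p = 0.609). Exons of Cerkl on the same strand and of Gm26755 on the opposite strand overlap those of Neurod1, so a few reads could belong to them.

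Neurod2, known from cortical neurons, had 5 reads in 243757167 over the 17 libraries, 2 of them in Pomc-high tumour 8 of Rb1/Trp53/Crebbp. It was not detectable as different between any groups at this depth.

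Onecut2, a cut-homeodomain factor of neurons and of neuroendocrine tumours, was the gene of the 9 that changed most with the genotype, and it did so in the Calca-high set. There it stood at 2.51, 9.51 and 5.67 CPM in Rb1/Trp53 (55, 251 and 113 reads) and at 51.4, 58.5, 69.7 and 54.9 CPM in Rb1/Trp53/Crebbp (487 to 1089 reads). The lowest library with the Crebbp allele lay far above the highest without it. Onecut2 rose 9.96-fold (log2 fold change 3.32 ± 0.40, adjusted p = 0.00181), and the log2 fold change was between 2.95 and 3.87 when each library was left out in turn.

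Onecut2 of the Pomc-high libraries stood at 7.46, 5.69, 6.69, 6.76, 3.21 and 7.27 CPM in Rb1/Trp53 and at 4.64, 8.80, 5.39 and 8.57 CPM in Rb1/Trp53/Crebbp, and the genotypes overlapped. Its log2 fold change was 0.17 (interval -0.33 to 0.67, adjusted p = 0.719). The genotype effects in the sets differed by 3.15 ± 0.46 on the log2 scale (adjusted p = 4.22e-04). The averaged difference of the sets, 1.51 ± 0.22 (adjusted p = 1.58e-05), therefore describes neither genotype: it was -0.06 (adjusted p = 0.901) among Rb1/Trp53 libraries and 3.06 (adjusted p = 2.36e-06) among Rb1/Trp53/Crebbp libraries.

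Onecut1 and Onecut3, the paralogues of Onecut2, stayed near 0. Onecut1 had 16 reads over the 10 Pomc-high and 2 over the 7 Calca-high libraries, a ratio of 8.64 over TMM-scaled totals (exact 95% interval 2.03 to 77.4, counting error only), and did not pass over samples (exact two-sided permutation p = 0.0116, adjusted p = 0.0697 over the 12 tests). In Calca-high Rb1/Trp53 its 0 of 70308950 reads allow up to 0.0427 CPM. Its exons overlap those of Gm20649 on the same strand.

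Onecut3 had 0, 12 and 2 reads in Calca-high Rb1/Trp53 and 3, 3, 30 and 11 reads in Calca-high Rb1/Trp53/Crebbp. The Pomc-high libraries had 4, 3, 1, 0, 0 and 1 reads in Rb1/Trp53 and 0, 1, 0 and 14 in Rb1/Trp53/Crebbp, the 14 again in tumour 8. The means in the Calca-high set, 0.185 and 0.768 CPM, did not differ beyond the spread (exact two-sided permutation p = 0.229, where 3 libraries against 4 cannot go below 0.0571), nor did the sets (p = 0.226). With summed reads set against TMM-scaled totals, the ratio of Rb1/Trp53 to Rb1/Trp53/Crebbp in the Calca-high set was 0.255 (exact 95% interval 0.13 to 0.47, counting error only), the same direction as for Onecut2, with 30 of the 47 reads in tumour 3.

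Set against all genes, the counts of called members were as follows. In the Pomc-high set 1 of 5 tested genes fell with the Crebbp allele (Myt1), where 8.42% of the 14010 genes tested passed in either direction and 5.26% fell. In the Calca-high set 2 of 5 fell and 1 rose, where 36.2% of 14797 genes passed, 17.1% falling and 19.1% rising. Between the sets 3 of 6 were higher and 2 of 6 lower in the Calca-high tumours, where 64.4% of 15432 genes passed, 32.9% higher and 31.5% lower, and 1 of 6 genotype effects differed between the sets, where 22.9% of genes did. One of the lower genes is Neurod1, which passed the low-count filter through the Pomc-high libraries; with a filter of at least 1 CPM it was not tested and 4 members were called. With 5 or 6 tested genes these shares are not a result about the group as a whole. The median log2 fold change of the tested members for the genotype was -0.15 in the Pomc-high set, beside 0.01 over all genes tested, and -0.21 in the Calca-high set, beside -0.02.

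**Figure D4:**
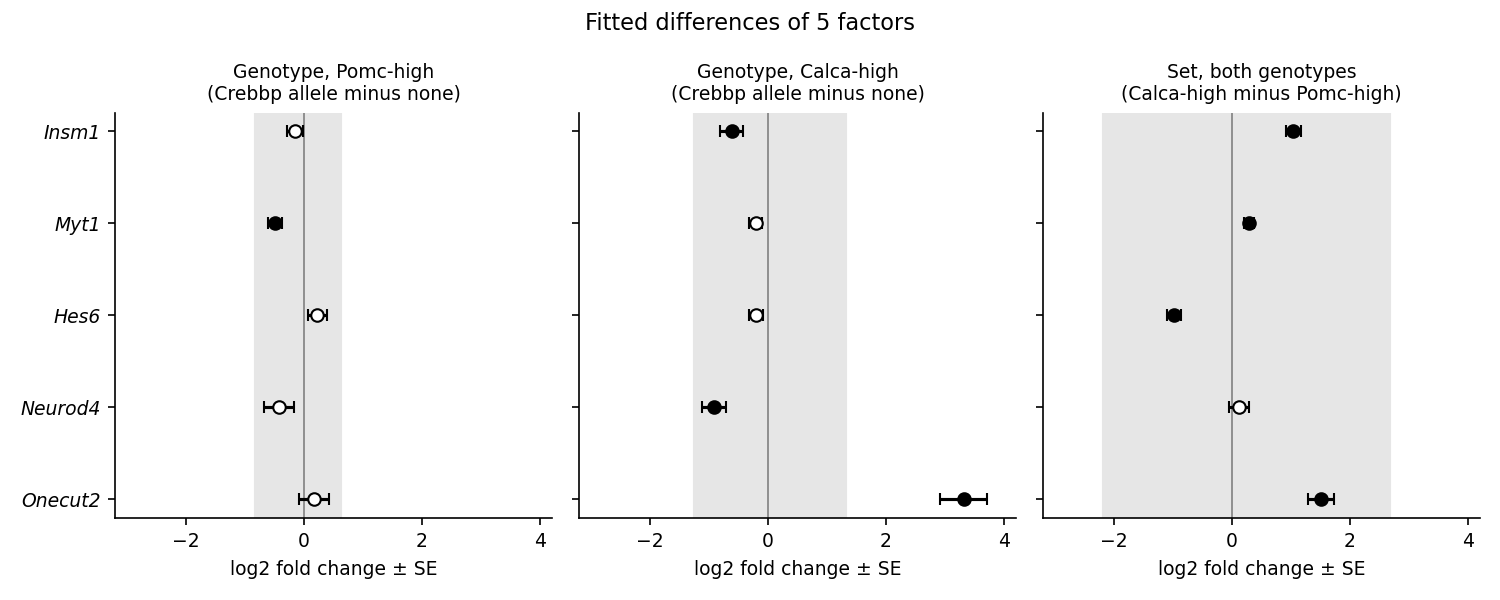
Log2 fold change ± SE of the 5 genes tested in every comparison, with the genotype difference in the Pomc-high set (left), the genotype difference in the Calca-high set (middle) and the difference of the sets (right); filled points passed an adjusted p of 0.05 and the grey band spans the central 90% of all genes tested. Onecut2 at 3.32 in the middle panel lies outside that band, and the other points lie inside it.

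Of the other proneural bHLH genes, Neurog3, the islet factor, stood at 10.2 to 197 CPM in the Calca-high and at 0.345 CPM or below in the Pomc-high libraries. Neurog3 entered the fit over all libraries only through its reads in the Calca-high ones, so its set difference from that fit is not given. Its genotype difference in the Calca-high set did not pass (adjusted p = 0.130). Reads of Neurog3 thus lay almost wholly in the Calca-high libraries and 50 of 51 reads of Neurod1 in the Pomc-high ones.

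Of 18 E proteins, Id inhibitors and Hes, Hey and Tle repressors, 15 were tested in the Calca-high set, where 1 rose and 6 fell with the Crebbp allele. Over all genes tested there, 19.1% rose and 17.1% fell, and in the Pomc-high set 3.15% rose and 5.26% fell. Between the sets 32.9% of all genes were higher and 31.5% lower, and 22.9% differed in genotype effect. The counts of this list and of those below stand beside these shares and were not tested as results about a list. Tcf12, an E protein that pairs with proneural factors, rose by 0.64 ± 0.10 (adjusted p = 0.00297), from 45.7 to 56.5 CPM up to 74.5 to 83.6 CPM. Id4, an inhibitor of such pairs, fell by 2.43 ± 0.32 (adjusted p = 0.00199), from 21.7 to 53.4 CPM down to 5.12 to 7.18 CPM; Hes1 was the other of the 3 with the smallest p. Of 16 tested in the Pomc-high set 2 fell, Id2 (-0.86, adjusted p = 0.00681) and Hes1. The genotype effect differed between the sets for 5 of 17, led by Id4 (-2.72), Tcf12 (1.05) and Id3 (-1.92). Between the sets 6 of 17 were higher in the Calca-high tumours, among them the Tle corepressors Tle1 (1.86) and Tle2 (2.03), and 7 lower, among them Hes7 (-3.62).

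Myt1l, the neuronal relative of Myt1, rose in the Calca-high set from 36.4 to 52.4 CPM up to 92.5 to 97.7 CPM with the Crebbp allele (1.13 ± 0.12, adjusted p = 0.00118), and St18 rose by 0.37 (adjusted p = 0.0150) there and fell by 0.38 in the Pomc-high set (adjusted p = 0.0355). The genotype effects of both differed between the sets (Myt1l 1.46, adjusted p = 3.67e-04; St18 0.76, adjusted p = 0.00155). Cux2, a relative of the Onecut genes, rose by 0.37 in the Calca-high set (adjusted p = 0.0399). In this list of 7, 3 of 6 tested rose in the Calca-high set (19.1% of all genes) and 1 of 6 fell in the Pomc-high set (5.26%). Between the sets 2 of 6 were higher in the Calca-high tumours (32.9% of all genes), St18 (1.504) and Myt1l (0.33), and 1 was lower (31.5%).

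Of 12 corepressor genes, known to work with Insm1, Myt1 proteins or REST, 3 rose and 2 fell in the Calca-high set (19.1% and 17.1% of all genes). Rcor1 rose from 11.2 to 11.6 CPM up to 27.7 to 42.8 CPM (1.61 ± 0.16, adjusted p = 9.82e-04) and Sin3a by 0.47, while Rcor2 fell from 37.1 to 45.1 CPM down to 19.3 to 24.8 CPM (-0.84 ± 0.12, adjusted p = 0.00218). Rcor1, Rcor3 and Rcor2 also differed in genotype effect between the sets (1.60, 1.17 and -0.96). Sin3b was the 1 of 12 that passed in the Pomc-high set, where it rose (0.29, adjusted p = 0.0491). Rest, the repressor of neuronal genes, stood at 0.522 to 2.92 CPM in the 17 libraries and did not pass in any comparison. Between the sets 6 were higher in the Calca-high tumours (32.9% of all genes), led by Rcor2 (1.87), Hdac2 (0.95) and Hdac1 (0.40), and 1 lower (31.5%).

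Among 25 other transcription factors of endocrine and neuronal differentiation, 4 of 15 tested rose and 3 fell with the Crebbp allele in the Calca-high set (19.1% and 17.1% of all genes). Prox1 rose from 41.6 to 47.3 CPM up to 105 to 159 CPM (1.56 ± 0.14, adjusted p = 7.80e-04). Nkx2-2, a homeodomain factor of islet and serotonergic cells, fell from 9.59 to 22.2 CPM down to 0.512 to 1.37 CPM (-4.004 ± 0.42, adjusted p = 0.00112), and Foxa2 by 0.79. Pou4f1 was the 1 of 17 that passed in the Pomc-high set, where it fell (-1.51, adjusted p = 0.0494). Prox1 (1.98), Nkx2-2 (-6.87) and Pou4f1 (4.55) led the 5 of 20 whose genotype effect differed between the sets. Between the sets 8 of 20 were higher in the Calca-high tumours (32.9% of all genes), led by Foxa2 (8.34). Another 9 were lower (31.5% of all genes), a count that includes Tbx19 and Pax7. Tbx19 and Pax7 passed the low-count filter only through the Pomc-high libraries, so their set differences from that fit are not given. Fitted values against libraries near 0 depend on the prior count.

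Of 32 neuroendocrine and neuronal effector genes, 31 were tested for genotype in each set. In the Calca-high set 5 rose and 7 fell (19.1% and 17.1% of all genes). The prohormone convertase genes Pcsk2 (-1.62, adjusted p = 0.00111) and Pcsk1 (-0.98) fell, and the complexin gene Cplx1 rose (3.38, adjusted p = 0.00252). Among Pomc-high tumours 5 rose and 4 fell (3.15% and 5.26% of all genes), with Elavl3 at 20.3 to 32.6 CPM in Rb1/Trp53 and 84.4 to 126 CPM in Rb1/Trp53/Crebbp (1.96 ± 0.14, adjusted p = 2.19e-05), Uchl1 (1.35) and Unc13a (-0.84). Between the sets 11 of 32 were higher in the Calca-high tumours (32.9% of all genes), led by Cplx2 (3.48) and Pcsk1 (2.13), and 16 lower (31.5%), led by Syt4 (-3.30). The genotype effect differed for 6 of 32, led by Scg3 (-0.995, adjusted p = 0.00249), Unc13a (1.28) and Uchl1 (-1.24).

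**Figure D5:**
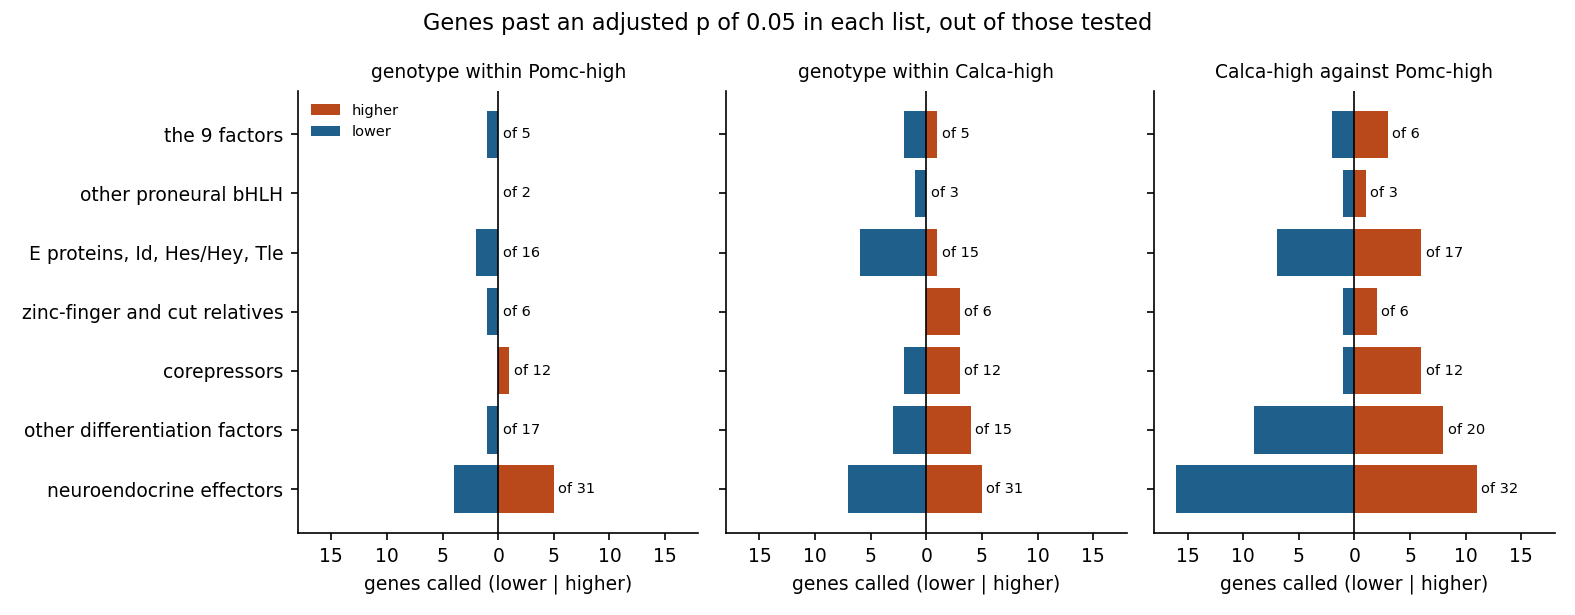
Number of genes past an adjusted p of 0.05 in each list, to the right when higher and to the left when lower, with the number tested beside each bar; the 3 panels are the genotype difference in the Pomc-high set, the genotype difference in the Calca-high set and the difference of the sets. The Pomc-high panel has the fewest calls in every list, and effector genes have bars on both sides in all 3 panels. Over all genes tested, 8.42%, 36.2% and 64.4% passed in the 3 comparisons, in that order.

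For each member tested over all libraries, the genes most like it were sought by Pearson's r of log2 CPM over the 17 libraries after the mean of each set and genotype was subtracted; r is given as a description, since many genes were searched. Mex3c (0.83), B4galt6 (0.82) and Klf12 (0.81) were most like Onecut2, and Mex3c and B4galt6 lie on the same chromosome as it. Samd10 (0.92), Oaz1 (0.87) and Cdk11b (0.83) were most like Hes6, and Rsad1 (0.90), Slc38a9 (0.90) and Usp48 (0.88) most like Myt1. Without subtracting group means, r over the 17 libraries was 0.20, -0.72 and -0.57 for those of Hes6. For those of Myt1 it was -0.29, -0.09 and 0.87, each in the same order. Likeness within groups is thus not a shared pattern over all libraries. Mlf1ip (0.85) and Pou2f2 (0.84) were among the genes most like Insm1, and Cep135 (0.85), Egr1 (0.84) and Col27a1 (0.82) most like Neurod4. For Neurod1, whose counts are 15 or fewer, they were Fancb (0.86), Isl2 (0.84) and 2010111I01Rik (0.81). Among the members themselves, Insm1 and Hes6 had r = 0.54 within groups and -0.63 over the 17 libraries without that step, the latter a difference of the sets.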

How the data were processed

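RNA was extracted with TRIzol and polyadenylated RNA was made into NEBNext Ultra libraries, per the labels' protocols. The submitters' processing notes name bcl2fastq 1.8.2, TopHat2 2.0.12, HTSeq 0.6.1 and build mm9; annotation, strand setting and read filters were not given in the sources used here. The authors deposited raw counts per gene, 1 table per tumour; 5 summary rows per table (21.7% to 35.5% of it) were left out.

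Genes kept by filterByExpr were scaled by TMM and tested with edgeR 4.0.16 (R 4.3.3, robust quasi-likelihood fit), with Benjamini-Hochberg adjustment over all genes tested and a threshold of 0.05. The genotype was fitted within each set, and the sets and the difference of genotype effects in a fit of 4 groups. Each SE was taken as |log2 fold change| / sqrt(F). Intervals of log2 fold changes take the normal quantile for 95% on that SE, so they are narrower than the F test allows. Printed CPM use the TMM factors of the 4-group fit, and log2 CPM a prior count of 2. Neurod1, Neurod2, Onecut1 and Onecut3 were too scarce for some or all fits, so exact permutation tests of CPM over samples (scipy 1.17.1) were added after their counts had been seen. Members and lists were chosen with earlier results of these data known. Named genes are all members and, per list and comparison, up to 3 called genes with the smallest adjusted p, and the 3 genes most like each member with a mean of at least 1 CPM; Chga, Rest and the set difference of Hes1 were picked with their values in view. Some genes that this rule names are not reported here. Tested on simulated data with 200 changed genes, the fits recovered 70% (Pomc-high, 14010 genes), 47% (Calca-high, 14797), 75% (sets, 15432) and 40% (difference of effects, 15432) of 2-fold changes and 97%, 80%, 95% and 64% of 4-fold changes, with 9, 5, 3 and 2 false calls. The simulation changed a far smaller share of genes than passed in the data (36.2% in the Calca-high set, 64.4% between the sets). Its rates may therefore not hold for the real fits. Alternatives were DESeq2 1.42.0, limma-voom with quality weights (limma 3.58.1), other scalings and filters, the tumour number as a block, and each library left out in turn. Figures were drawn with matplotlib 3.10.9.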

Additional observations from a re-analysis of the deposited data

Results flagged for a closer look

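Of the 4 Pomc-high Rb1/Trp53/Crebbp libraries, tumour 6 stood apart for Neurod4 at 4.14 CPM, beside 2.53 to 2.67 CPM in the other 3. In the same group tumour 5 stood apart for Hes6 at 146 CPM, beside 85.3 to 95.2 CPM in the other 3. The gap of each was compared with the range of its group over 17 groups in all, and chance sets a library apart in this way in about 1 in 20 groups. The genotype effect on Onecut2 differed between the Calca-high and the Pomc-high set by 3.15 on the log2 scale, by the interaction test of the 4-group fit.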

How the results depend on the processing

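Over 455 alternative values of the tested members, 437 kept their direction and their side of the threshold, 15 lost the threshold and 3 turned. Onecut2 kept its rise in the Calca-high set and its difference between the sets' genotype effects under every alternative run. The count of genes past the threshold in the Pomc-high set moved from 1179 to 1917 with DESeq2 and 1937 with limma-voom, and to between 752 (without Rb1/Trp53/Crebbp tumour 7) and 1214 with 1 library left out, where between 0 and 1 members were called. No scaling moved the median of all genes by over 0.1. In the comparison of sets, 2 members passed among Rb1/Trp53 libraries alone, beside 8262 of all 15104 genes tested there. Onecut2 turned to -0.062 in that fit, and Neurod4 turned to -0.14 among Rb1/Trp53/Crebbp libraries alone.

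With the tumour number as a replicate block, the counts were 354 of 14010 genes and 0 members (Pomc-high) and 2700 of 14797 genes and 1 member (Calca-high). They were 1928 of 15432 genes and 1 member (sets) and 1253 of 15432 genes (difference of effects). The calls of Myt1 in the Pomc-high set (adjusted p = 0.0544) and of Neurod4 (0.0818) and Insm1 (0.136) in the Calca-high set were lost. Between the sets Myt1 turned to -0.18, and the calls of Neurod1, Insm1 and Onecut2 were lost. Only tumour number 2 occurs in both sets, so the blocked difference of the sets rests on that number and cannot weigh these calls. The share of calls that were higher moved from 37.5% to 24.9% (Pomc-high) and from 56.1% to 70.4% (difference of effects). Over 7 same-numbered pairs the correlation of deviations from group means was -0.154 to 0.196, and 1 of 7 was best matched by its own number. So few pairs cannot decide whether the numbers pair the samples. Depth limits Neurod2, Onecut1 and Onecut3, with 5 to 85 reads each in all.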

Other observations

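Genes on the chromosome that carries Onecut2 had a median log2 fold change of 0.17 with the Crebbp allele in the Calca-high set (411 genes). Of them 27.3% were called higher, beside 19.1% of all genes tested there. The other chromosomes had medians of -0.32 to 0.11, so the chromosome of Onecut2 ranked highest there. In the Pomc-high set its median was 0.03 (394 genes). Mex3c and B4galt6, given above as most like Onecut2 within groups, lie on it. No cause was tested.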
